A study of Mus musculus with 12 samples.

Results

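The genes described here encode ribosomal proteins and translation factors measured in the blood of aged mice. They were taken from the blood expression table by gene symbol: names of cytosolic ribosomal proteins (Rpl, Rps, Rplp, Rpsa), of mitochondrial ribosomal proteins (Mrpl, Mrps), and of initiation (Eif1 to Eif6) and elongation (Eef1, Eef2) factors. Ribosomal S6 kinases, eIF4E-binding proteins and Eif2ak2 were left out by the same rule. Of the 8003 genes in the table used here, 88 fitted. By symbol, 48 were mitochondrial ribosomal proteins, 31 of the large and 17 of the small subunit. The symbol alone placed these 48 genes, and whether each protein is part of the ribosome was not checked. The others were 31 initiation factors or their regulators, 4 genes named after elongation factors, 4 cytosolic ribosomal proteins or paralogues, and Rps19bp1. The last encodes a protein that binds Rps19 and is not part of the ribosome.

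Mammalian cells make proteins on separate kinds of ribosome. Cytosolic ribosomes translate nuclear-encoded mRNA after initiation factors have brought the small subunit to the start codon, whereas mitochondrial ribosomes, whose proteins are encoded in the nucleus and imported, translate only the respiratory chain subunits encoded by mitochondrial DNA. The eIF2 kinases reduce initiation by phosphorylating eIF2, and in the red cell lineage the heme-regulated kinase Eif2ak1 couples globin synthesis to the supply of heme.

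Blood RNA came from C57BL/6 mice aged 15 months, 3 in the control group (Ctrl 1, 2 and 3) and 3 in the *Akkermansia muciniphila* group (Akk 1, 2 and 3), with 1 library per mouse. *A. muciniphila* is a gut bacterium. The sample labels describe the Akk treatment as a membrane protein of this bacterium, with 8 weeks as its length in the characteristics and 6 weeks in the protocol text, whereas the study's methods describe gavage with the bacterium itself after antibiotics, and say that the mice sampled for RNA were not successfully colonized. The groups are therefore named only by their labels. In those methods antibiotics came before gavage in the vehicle controls as well, which received phosphate-buffered saline with glycerin. The authors deposited FPKM, a fragment count divided by transcript length and library size. The depth behind each value is unknown, and precision is set by having 3 mice in a group.

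The table holds genes that the study itself had selected for a difference between these groups, so the direction of any gene in it was already chosen. The Akk mean was below the Ctrl mean for 99.5% of the 8003 genes. Ctrl 1 stood apart from the other 5 libraries and held the highest value for 97.9% of the genes. The median of log2(FPKM + 0.1) over all genes was 0.59 in Ctrl 1, and lay between -1.84 and -1.15 in the other libraries. Log2 fold changes are therefore also given without Ctrl 1 where this moved them by over 1.5 times. The blood was a mixture of cells, and fewer cells of a type and less RNA per cell cannot be told apart.

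The table held very different parts of the cytosolic and the mitochondrial ribosome. Of a list of 79 canonical cytosolic ribosomal proteins, 1 was in the table (1.27%), the small-subunit protein Rps6. The other 3 cytosolic members were paralogues, Rpl36al, Rpl7l1 and Rps27l. Of a list of 83 mitochondrial ribosomal proteins, 49 were in the table (59.0%), 31 of 50 of the large subunit and 18 of 33 of the small subunit, the latter count including Chchd1, whose symbol the rule does not take. The comparison of both ribosomes thus set 48 mitochondrial genes against 4 cytosolic ones, and is a comparison of the genes in this table and not of whole ribosomes. Since the table holds genes that the study selected for a group difference, an absent gene is one that was not selected. Its absence does not show that it was not expressed. For comparison, 6354 of the 27025 genes with a RefSeq promoter window were in the table. The cytosolic ribosomal proteins that are absent were not analysed here.

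Promoter sequences are shown because genes for cytosolic ribosomal proteins are known to begin transcription within a run of pyrimidines, the feature that places their mRNA under mTOR control. The sequences are RefSeq windows of build GRCm38.p6, reaching 100 bases before and 23 bases from the annotated start, on the strand of the gene. Capitals mark the longest run of C and T within 20 bases of the start, and matches on either strand to CCGGAAG, the core recognised by ETS factors, or to GATGGCG, the core of the YY1 motif.
Rps6, chr4:86857345-86857467, minus strand: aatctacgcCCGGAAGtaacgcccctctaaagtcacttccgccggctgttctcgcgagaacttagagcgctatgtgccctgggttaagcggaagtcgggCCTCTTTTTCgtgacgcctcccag
Mrps16, chr14:20393612-20393734, minus strand: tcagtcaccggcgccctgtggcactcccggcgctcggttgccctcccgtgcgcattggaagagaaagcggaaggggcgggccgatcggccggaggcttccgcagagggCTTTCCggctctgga
Mrpl42, chr10:95501927-95502049, minus strand: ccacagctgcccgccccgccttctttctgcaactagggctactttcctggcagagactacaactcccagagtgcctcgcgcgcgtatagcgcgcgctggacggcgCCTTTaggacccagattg
Eif2ak1, chr5:143817692-143817814, plus strand: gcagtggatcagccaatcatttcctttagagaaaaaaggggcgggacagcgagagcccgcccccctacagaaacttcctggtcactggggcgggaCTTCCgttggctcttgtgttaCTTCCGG

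Rps6 had a run of 10 pyrimidines across its start. The longest run near the start was 6 bases in Mrps16 and 5 bases in both Mrpl42 and Eif2ak1. Mrps16 has 2 annotated starts, of which the upstream one, where the annotated gene begins, is shown, and the longest run at the other was 3 bases. Windows of 300 bases were found for 75 of the 88 members. A run of at least 8 pyrimidines within 20 bases of the start was present in 7 of 42 mitochondrial ribosomal members (16.7%) and in 7 of 25 initiation members (28.0%), against 18.8% of all 27025 genes with a window and 20.5% of the blood table. In the list of canonical cytosolic ribosomal proteins it was present in 30 of 58 (51.7%). CCGGAAG was found in the windows of 14 of 42 mitochondrial ribosomal members (33.3%) and of 9 of 25 initiation members (36.0%), compared with 21.1% of the blood table and 9.93% of all genes. GATGGCG was found in 6 of the 42 (14.3%) and in 1 of the 25 (4.00%), compared with 8.39% of the blood table. The printed start of Rps6 is thus of the kind found in 51.7% of the canonical cytosolic genes, and those of the other 3 genes are not. These are matches of letters, counted without a test, and not binding sites.

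The group mean of all 88 members was lower in Akk than in Ctrl, and Ctrl 1 was the highest of the 6 libraries for all 88. Neither count stands out, given the 99.5% and 97.9% of the whole table. With limma on log2(FPKM + 0.1) and Benjamini-Hochberg adjustment over the 8003 genes, 0 of the 88 members passed a fold change of at least 1.5 with an adjusted p of at most 0.05, as did 0% of the table. The study had selected the genes of the table at the same thresholds by its own method. The p-values here, and their adjustment, were thus computed within a list preselected on this contrast and are no independent test. The smallest adjusted p of a member was 0.487. At an unadjusted p under 0.05 there were 0 members, against 3.40% of the table in the lower direction. The Akk values were all lower than the Ctrl values for 9 members, that is 6 of the 48 mitochondrial ribosomal proteins, 2 of the 31 initiation members and Rps19bp1, against 15.4% of the table. The share was 12.5% for the mitochondrial ribosome and 6.45% for initiation, neither above that of the table. For any gene without overlap, an exact permutation test counting both directions has a p of 0.1, the smallest that groups of 3 allow. This value follows from how the 9 genes were picked and is no further test of them.

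**Figure D1:**
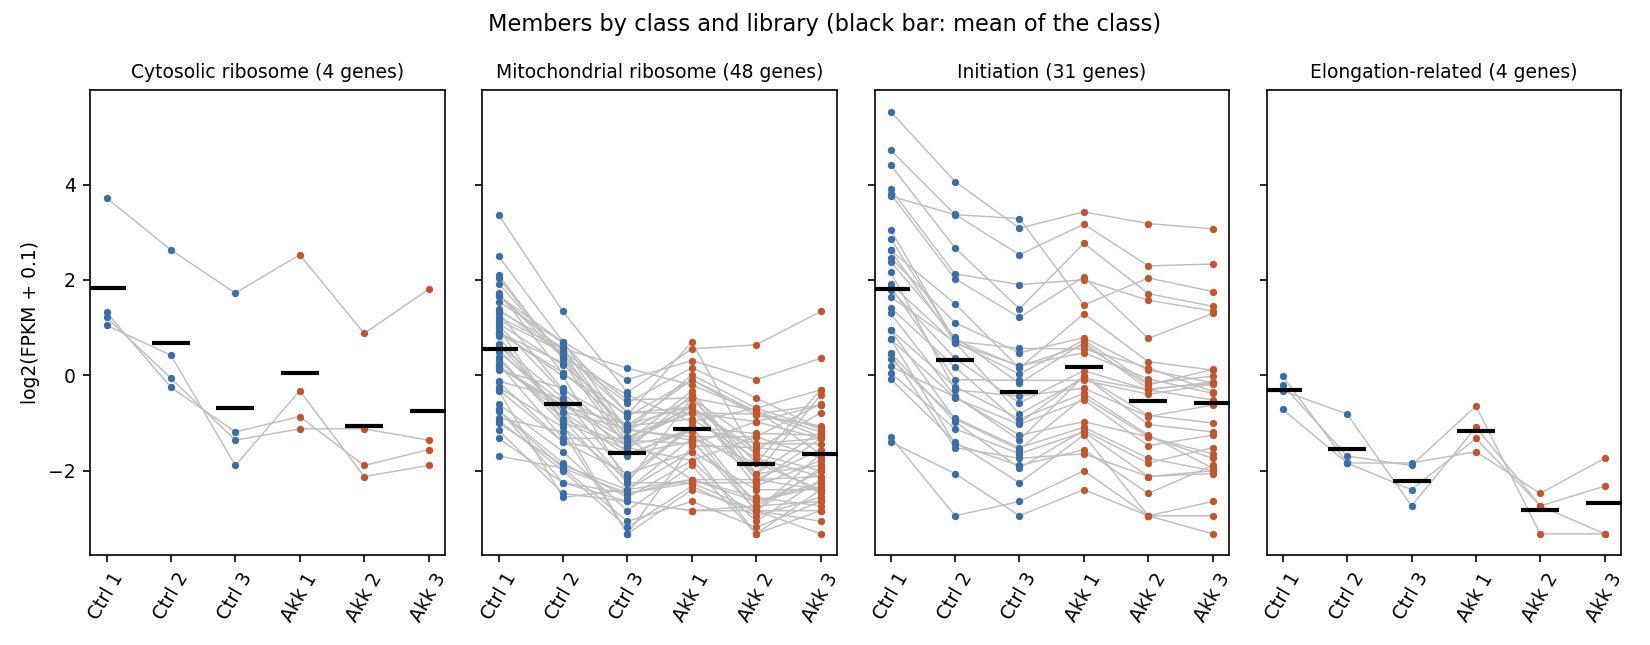
Each point is 1 member in 1 blood library, on the log2(FPKM + 0.1) scale, with grey lines joining the values of a gene and a black bar at the mean of its class. In all 4 classes Ctrl 1 is the highest library, with Ctrl 3 between or beside the Akk libraries.

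Among the cytosolic members, Rps6, a component of the small subunit and the substrate of the S6 kinases, had 2.22, 0.86 and 0.29 FPKM in Ctrl 1, 2 and 3, and 0.36, 0.36 and 0.29 FPKM in Akk 1, 2 and 3. Ctrl 3 was as low as Akk 3, so that the groups overlapped and the control spread came from Ctrl 1 and Ctrl 2. The means were 1.12 ± 0.99 FPKM in Ctrl and 0.34 ± 0.04 FPKM in Akk (SD, n = 3 each), and the log2 fold change was -1.13 with an SE of 0.92 (adjusted p = 0.487, limma). Without Ctrl 1 it was -0.49 with an SE of 0.46. Rps6 shares at least 95% of its sequence over at least 50% of its length with 11 other annotated genes, so that the authors' counting could have divided its fragments. The part of these copies in the level of Rps6 was not tested.

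Rpl36al, a paralogue of the large-subunit protein Rpl36a, was the highest of the cytosolic members at 13.07, 6.09 and 3.21 FPKM in Ctrl and 5.67, 1.74 and 3.39 FPKM in Akk. Akk 1 and Akk 3 were above Ctrl 3, and the log2 fold change of -0.95 (SE 0.94) was within the spread, as was that of -0.44 (SE 0.51) without Ctrl 1. Rpl7l1, a paralogue of Rpl7 with a role in ribosome assembly, was measured at 2.40, 0.74 and 0.34 FPKM in Ctrl and 0.45, 0.17 and 0.24 FPKM in Akk, a log2 fold change of -1.40 (SE 0.92), or -0.72 (SE 0.47) without Ctrl 1. Rps27l, a paralogue of Rps27 induced by p53, had 1.97, 1.24 and 0.17 FPKM in Ctrl and 0.70, 0.13 and 0.17 FPKM in Akk, with a log2 fold change of -1.31 (SE 0.92), or -0.71 (SE 0.76) without Ctrl 1. The groups overlapped for all 4 cytosolic members, and none passed the test. Rps19bp1 lay at 0.43, 0.21 and 0.16 FPKM in Ctrl and at 0.05, 0.05 and 0.11 FPKM in Akk, with no overlap (log2 fold change -1.06, SE 0.69).

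Over the means of the 48 mitochondrial ribosomal genes the median was 0.49 FPKM, against 0.73 for the 4 cytosolic members and 0.45 for the whole table. A mean below 1 FPKM was found for 37 of the 48 genes. The same held for 3 of the 4 cytosolic members and for 5637 of the 8003 genes of the table. Mrps16 is a protein of the small subunit, on chromosome 14 at 20391222 to 20393634. It had 2.52, 1.26 and 0.31 FPKM in Ctrl and 0.48, 0.47 and 0.55 FPKM in Akk. The 3 Akk libraries were close together and all lay above Ctrl 3, while Ctrl 1 and Ctrl 2 were higher. The means were 1.36 ± 1.11 and 0.50 ± 0.04 FPKM (SD, n = 3 each), and the log2 fold change was -0.92 with an SE of 0.92 (adjusted p = 0.487, limma). Without Ctrl 1 it was -0.32 (SE 0.51), and after centring each library on its median gene it was -0.01, so that Mrps16 moved as the middle gene of the table did.

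**Figure D2:**
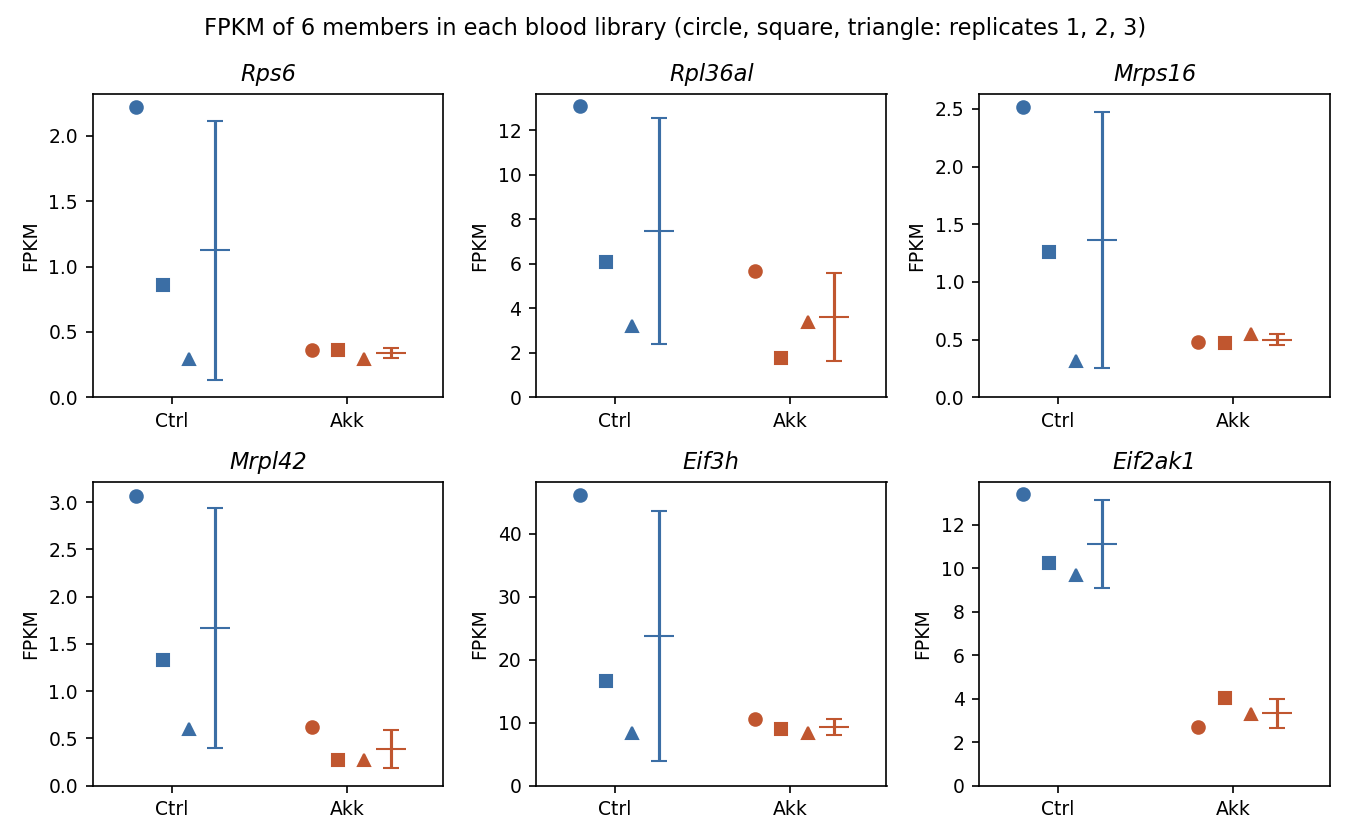
FPKM of 6 members in the 3 Ctrl (blue) and 3 Akk (orange) libraries, with the group mean and SD beside the points (circle, square and triangle are replicates 1, 2 and 3). Only for Eif2ak1 among these 6 do all 3 Ctrl libraries, at 9.67 to 13.43 FPKM, lie above all Akk libraries, at 2.68 to 4.02 FPKM.

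Among the 31 genes of the mitochondrial large subunit in the table, Mrpl33, Mrpl48 and Mrpl4 had the highest mean FPKM. Mrpl33 had 10.21, 2.43 and 0.68 FPKM in Ctrl and 1.37, 1.46 and 2.43 FPKM in Akk. Its log2 fold change was -0.60 (SE 0.93) with all libraries and 0.36 (SE 0.52) without Ctrl 1, a change of sign that neither fit separates from 0. Mrpl48 had 5.54, 1.53 and 0.84 FPKM in Ctrl and 1.14, 0.84 and 1.18 FPKM in Akk. Mrpl4 had 3.70, 1.23 and 0.57 FPKM in Ctrl and 1.02, 0.62 and 0.36 FPKM in Akk. The log2 fold changes of Mrpl48 and Mrpl4 were -0.84 and -1.06, or -0.12 and -0.39 without Ctrl 1. The groups overlapped for all 3 genes.

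The members with the smallest unadjusted p were Mrpl28, Eif2ak1, Mrps10, Mrpl40, Mrpl42 and Mrpl14, at 0.068 to 0.075 by limma and thus none under 0.05. Of them, 5 belong to the mitochondrial ribosome and 4 to its large subunit, which make up 48 and 31 of the 88 members. Mrpl42 had 3.07, 1.33 and 0.60 FPKM in Ctrl and 0.62, 0.27 and 0.27 FPKM in Akk, a log2 fold change of -1.67 (SE 0.92), and only Akk 1 and Ctrl 3 crossed. Mrpl28 had 1.46, 0.49 and 0.36 FPKM in Ctrl and 0.29, 0.04 and 0.16 FPKM in Akk, a log2 fold change of -1.63 (SE 0.90), with no overlap. Mrpl40 had 1.76, 0.94 and 0.38 FPKM in Ctrl and 0.43, 0.20 and 0.08 FPKM in Akk, a log2 fold change of -1.67 (SE 0.92). Without Ctrl 1 the log2 fold changes of Mrpl42, Mrpl28 and Mrpl40 were -1.12, -1.11 and -1.21. These 3 were also the members with an unadjusted p under 0.05 after each library was centred on its median gene, 3 of 88 against 3.22% of the table, and their centred log2 fold changes lay between -0.76 and -0.72. Their smallest adjusted p with centring was 0.934, so none passed the test.

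Mrpl14 had 2.46, 1.40 and 0.30 FPKM in Ctrl and 0.53, 0.22 and 0.15 FPKM in Akk (log2 fold change -1.64, SE 0.92, or -1.07 without Ctrl 1). Mrpl10 had 3.17, 1.19 and 0.65 FPKM in Ctrl and 0.41, 0.52 and 0.36 FPKM in Akk, with no overlap (log2 fold change -1.48, SE 0.92, or -0.90 without Ctrl 1). Mrps10 had 0.44 and 0.34 FPKM in Ctrl 1 and Ctrl 2, was listed at 0 in Ctrl 3 and Akk 3, and had 0.09 and 0.04 FPKM in Akk 1 and Akk 2 (log2 fold change -1.05, SE 0.58, or -0.60 without Ctrl 1). At such levels the pseudocount of 0.1 sets much of the fold change. In the small subunit, Mrps24 had 3.21, 0.93 and 0.46 FPKM in Ctrl and 1.53, 0.20 and 0.13 FPKM in Akk (log2 fold change -1.36, SE 0.92, or -0.65 without Ctrl 1). Mrps15 had 4.20, 1.16 and 0.28 FPKM in Ctrl and 0.70, 0.14 and 0.65 FPKM in Akk (log2 fold change -1.28, SE 0.92, or -0.40 without Ctrl 1). Mrps23 had 3.08, 1.52 and 0.35 FPKM in Ctrl and 0.91, 0.52 and 0.71 FPKM in Akk (log2 fold change -0.73, SE 0.92, or -0.10 without Ctrl 1). For these 3 genes of the small subunit at least 1 Akk library was above Ctrl 3. Over the 48 genes the log2 fold change ran from -1.67 in Mrpl40 to -0.22 in Mrps11, a protein of the small subunit, which was listed at 0 in Ctrl 3 but had 1.20 and 0.39 FPKM in Ctrl 1 and 2 and 0.22 to 0.26 FPKM in Akk. Without Ctrl 1 the log2 fold change of Mrps11 was 0.63.

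The median log2 fold change was -1.22 for the 4 cytosolic members and -0.95 for the 48 mitochondrial ones, a difference of 0.27, compared with -0.87 for all genes of the table. The large and small mitochondrial subunits had medians of -1.01 and -0.92. Without Ctrl 1 the medians were -0.60 and -0.40, and that of the table was -0.24. After centring they were -0.30 and -0.04, against 0.04 for the table. Both ribosomes thus had medians below that of the table in each of these fits, by less for the mitochondrial than for the cytosolic members. Among genes with a mean of at least 1 FPKM the order turned, with -0.95 for the cytosolic member that remained (Rpl36al) and -1.28 for 11 mitochondrial ones. The median of all genes at that level was -1.11, so that the cytosolic value then lay above it. Within libraries, the class mean of the mitochondrial genes minus that of the cytosolic ones was -1.28, -1.29 and -0.96 in Ctrl and -1.19, -0.79 and -0.90 in Akk on the log2(FPKM + 0.1) scale, so that the groups overlapped.

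**Figure D3:**
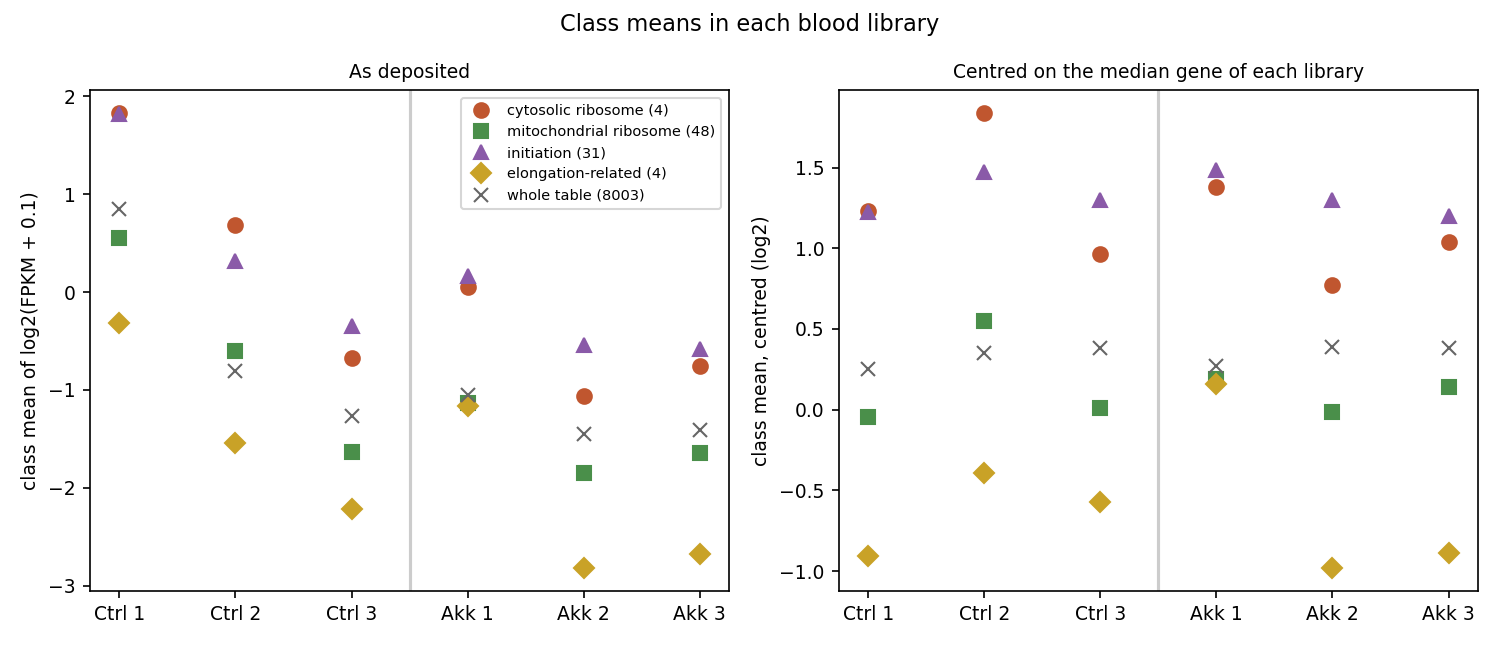
Class means of log2(FPKM + 0.1) in each blood library, as deposited (left) and after subtracting the median gene of the library (right), for the classes and for the whole table. On the left all classes are highest in Ctrl 1. On the right Ctrl 2 holds the highest mean of both ribosomes, 1.84 for the cytosolic and 0.55 for the mitochondrial genes, and the groups overlap in every class.

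Initiation factors included the highest levels among the members. Eif3h, a subunit of eIF3, the complex that scaffolds the small ribosomal subunit during initiation, had 46.09, 16.62 and 8.40 FPKM in Ctrl and 10.66, 8.98 and 8.31 FPKM in Akk. Its means were 23.7 ± 19.8 and 9.32 ± 1.21 FPKM (SD, n = 3 each), the log2 fold change was -0.999 (SE 0.95), or -0.35 (SE 0.38) without Ctrl 1, and 2 Akk libraries were above Ctrl 3. Another eIF3 subunit, Eif3f, had 26.32, 10.26 and 5.67 FPKM in Ctrl and 8.89, 4.81 and 4.94 FPKM in Akk (log2 fold change -0.94, SE 0.94, or -0.35 without Ctrl 1). The 7 eIF3 subunits in the table had a median log2 fold change of -0.93, with a range from -1.10 to -0.77, against -0.87 for the table. The eIF3 median was -0.26 without Ctrl 1, against -0.24 for the table, and -0.01 after centring.

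The 10 members of the eIF4 group include the cap-binding protein Eif4e, the scaffold Eif4g1 and the helicases Eif4a1 and Eif4a2, with Eif4a3, which acts in the exon junction complex. Eif4g1 had the lowest change among them at 8.19, 1.54 and 1.38 FPKM in Ctrl and 1.37, 1.02 and 0.69 FPKM in Akk. The groups did not overlap, but Akk 1 and Ctrl 3 nearly met, and the log2 fold change was -1.32 (SE 0.93), or -0.51 (SE 0.37) without Ctrl 1. Eif4e had 2.36, 0.64 and 0.29 FPKM in Ctrl and 0.89, 0.39 and 0.34 FPKM in Akk. Its log2 fold change was -0.58 with all libraries and 0.15 without Ctrl 1. The eIF4 group had a median of -0.99 with all libraries and -0.26 without Ctrl 1. For the 5 subunits of eIF2B, the exchange factor that recycles eIF2, the medians were -0.99 and -0.41, and all 5 had means below 1 FPKM. The 7 other factors (Eif1a, Eif1b, Eif1ad, Eif2a, Eif2d, Eif5b and Eif6) had a median of -0.80, or -0.21 without Ctrl 1. After centring all 7 had a positive log2 fold change, but after centring without Ctrl 1 only 4 did. Eif1b, the member with the highest change among initiation genes of at least 1 FPKM, had 3.03, 1.52 and 0.47 FPKM in Ctrl and 0.86, 0.71 and 0.81 FPKM in Akk, and its log2 fold change was -0.68, or -0.11 without Ctrl 1.

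Eif2ak1, on chromosome 5 at 143817792 to 143902717, differed from the other members in its control values. It had 13.43, 10.23 and 9.67 FPKM in Ctrl and 2.68, 4.02 and 3.28 FPKM in Akk. The 3 Ctrl libraries lay close together and every Akk library was below them, with means of 11.1 ± 2.03 and 3.33 ± 0.67 FPKM (SD, n = 3 each). Ctrl 1 was 1.35 times the mean of Ctrl 2 and Ctrl 3, the lowest value of the 88 members, whose median was 3.60. The log2 fold change was -1.71 (SE 0.94) with all libraries and -1.57 (SE 0.32) without Ctrl 1, with adjusted p-values of 0.487 and 0.344 by limma, so Eif2ak1 passed the test in neither fit. After centring it was -0.80, and Ctrl 1 then overlapped with the Akk libraries.

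Other genes that act on eIF2 are given beside it. Eif2ak4, the kinase that senses uncharged tRNA, was near the lower limit of the table at 0.31, 0.03 and 0.06 FPKM in Ctrl and 0.15 and 0.03 FPKM in Akk 1 and 2, and was listed at 0 in Akk 3. Eif2ak2, the kinase activated by double-stranded RNA and outside the rule, had 2.52, 0.22 and 0.23 FPKM in Ctrl and 0.11, 0.06 and 0.22 FPKM in Akk. Neither kinase had the even control values of Eif2ak1. Ppp1r15a encodes a subunit of the phosphatase that removes the phosphate from eIF2. It had 17.58, 20.87 and 20.75 FPKM in Ctrl and 8.23, 9.65 and 6.80 FPKM in Akk, with no overlap. Its log2 fold change was -1.26 (SE 0.95) with all libraries and -1.34 (SE 0.33) without Ctrl 1, with adjusted p-values of 0.487 and 0.534 by limma. It was named after its values were seen, and its control values were as even as those of Eif2ak1. Ppp1r15b, the other subunit of this kind, had 5.24, 0.55 and 0.52 FPKM in Ctrl and 1.06, 0.57 and 0.71 FPKM in Akk, a pattern led by Ctrl 1.

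Since Eif2ak1 is abundant in the red cell lineage, markers of that lineage are given with it. Of 13 red cell markers, 1 was in the table, the membrane skeleton gene Ank1. It had 0.75, 3.27 and 3.12 FPKM in Ctrl and 0.56, 1.91 and 0.92 FPKM in Akk. Its log2 fold change was -0.92 (SE 0.92) with all libraries and -1.57 (SE 0.47) without Ctrl 1. Ctrl 1 was low in Ank1, whereas it was the highest library for Eif2ak1. The globins and the other red cell markers were not analysed here, and the part of red cell content in the result for Eif2ak1 was not tested.

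Without Ctrl 1, 6 of the 88 members had an unadjusted p under 0.05 in the lower direction, against 4.99% of the table. They were Eif2ak1, Rps19bp1 and the large-subunit proteins Mrpl44, Mrpl23, Mrpl42 and Mrpl10. Mrpl23 had 2.23, 1.38 and 1.01 FPKM in Ctrl and 0.77, 0.49 and 0.31 FPKM in Akk, a log2 fold change of -1.11 (SE 0.41) without Ctrl 1. Mrpl44 had 1.08, 0.30 and 0.30 FPKM in Ctrl and 0.12, 0.12 and 0.09 FPKM in Akk, a log2 fold change of -0.93 (SE 0.35) without Ctrl 1. In both genes the groups did not overlap. None passed the test, the smallest adjusted p without Ctrl 1 being that of Eif2ak1. The same 9 members as with Ctrl 1 had all Akk values below both Ctrl 2 and Ctrl 3, against 15.6% of the table. The log2 fold change was negative for 78 of the 88 members without Ctrl 1, against 81.6% of the table, and positive for 10, which were 7 mitochondrial ribosomal proteins and the initiation genes Eif2a, Eif2ak4 and Eif4e. Without Ctrl 3 instead, which is the Ctrl library nearest to the Akk libraries, 16 of the 88 members (18.2%) had an unadjusted p under 0.05, against 20.0% of the table, and 0 members passed the test. These were 13 of the 48 mitochondrial ribosomal proteins (27.1%), 2 of the 4 cytosolic members and 1 of the 31 initiation members (3.23%), shares on both sides of that of the table and given without a test.

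**Figure D4:**
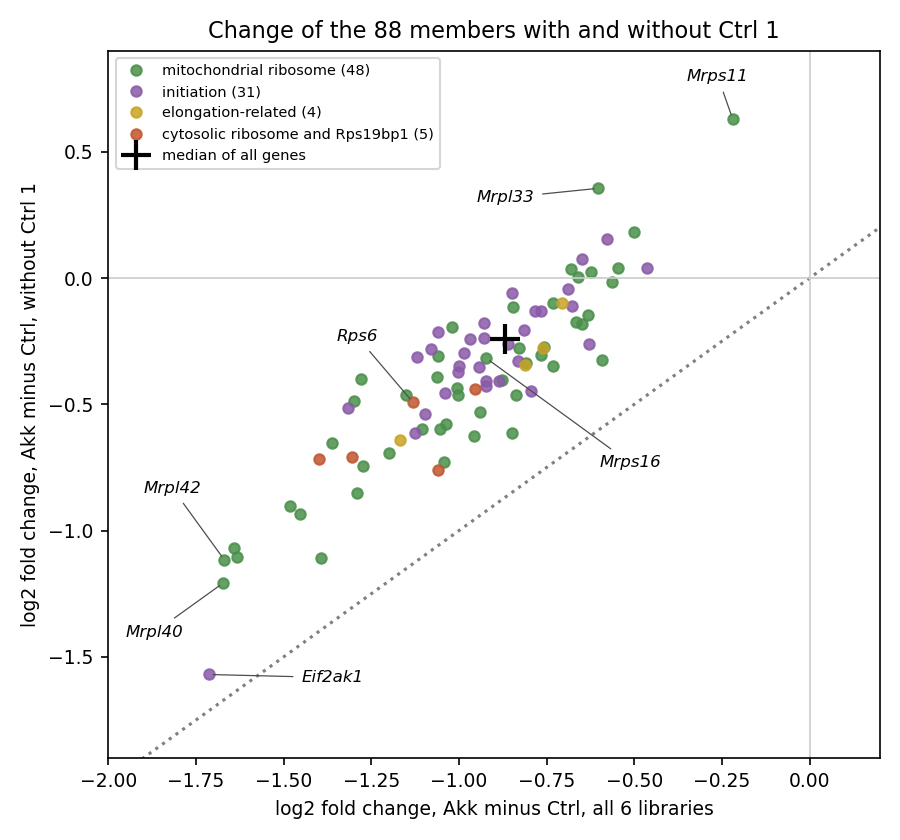
Log2 fold change of each of the 88 members with all 6 libraries (horizontal) and without Ctrl 1 (vertical), coloured by class, with the median of all genes in the table as a cross and a dotted line where both are equal. Most members lie well above the line, whereas Eif2ak1, at -1.71 and -1.57, lies near it.

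After centring on the median gene of each library, 49 of the 88 members had a negative log2 fold change and 39 a positive one, against 45.1% negative in the table. The centred Akk values were all lower than the Ctrl values for 3 members, Mrpl28, Mrpl42 and Rpl7l1, against 4.44% of the table. Measured against the middle of the table, the members as a group therefore lay near it, with a median of -0.02, and their direction depended on the scaling.

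The 4 genes named after elongation factors do not encode the factors themselves. Eef2k, the kinase that inhibits eEF2, had 0.89, 0.18 and 0.18 FPKM in Ctrl and 0.23, 0.08 and 0.20 FPKM in Akk. Eef1e1, a component of the multi-tRNA synthetase complex, had 0.77, 0.21 and 0.17 FPKM in Ctrl. In Akk 1 it had 0.54 FPKM, but it was listed at 0 in Akk 2 and Akk 3. Eef2kmt and Eef1akmt1 are methyltransferases of eEF2 and eEF1A. Eef2kmt had 0.51, 0.18 and 0.09 FPKM in Ctrl and 0.30, 0.05 and 0 FPKM in Akk. Eef1akmt1 had 0.70, 0.47 and 0.05 FPKM in Ctrl and 0.37, 0.05 and 0.10 FPKM in Akk. All 4 means were below 1 FPKM, the groups overlapped, and the log2 fold changes ran from -1.17 to -0.71, with a median of -0.79, or -0.31 without Ctrl 1.

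In wider lists of the translation machinery, 0 genes passed the test in either direction. Of 8 termination and recycling factors, 7 were in the table with a median log2 fold change of -0.72. Of 20 mitochondrial translation factors, 16 were in the table with a median of -0.74. Of 22 cytosolic tRNA synthetases, 18 were in the table with a median of -0.90, and of 17 mitochondrial ones, 5 with a median of -0.59. Of 75 ribosome biogenesis genes, 50 were in the table with a median of -0.81. These medians lay on both sides of the -0.87 of the table. Without Ctrl 1 they were -0.17, -0.19, -0.39, 0.03 and -0.33 in the same order, so that the sign of the mitochondrial tRNA synthetases changed, against -0.24 for the table. Of 19 genes of cap binding and translation control outside the rule, 10 were in the table with a median of -1.06, and of 17 genes of the S6 kinases and mTOR, 11 with a median of -0.87, or -0.45 and -0.24 without Ctrl 1. Among all genes of these lists only Rps6kl1, a kinase-like relative of the S6 kinases, had a higher mean in Akk, at 0.06, 0.09 and 0.06 FPKM against 0.02 FPKM in each Ctrl library.

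Markers of blood cell types were also lower in Akk, as were 99.5% of the genes of the table, and some lists by more than the members. Ptprc, which encodes the leukocyte antigen CD45, had 47.31, 7.21 and 5.87 FPKM in Ctrl and 7.61, 4.55 and 4.48 FPKM in Akk. The summed FPKM of the 11 of 11 neutrophil markers in the table ranged from 281 to 1420 in Ctrl and from 145 to 370 in Akk, that of 5 of 6 monocyte markers from 69.7 to 931 and from 74.4 to 121, and that of 8 of 8 platelet markers from 326 to 3245 and from 398 to 504. For the 5 of 5 NK cell markers the sums were 13.8 to 61.4 FPKM in Ctrl and 6.46 to 10.8 FPKM in Akk, with no overlap. The 4 of 7 T cell markers summed to 4.99 to 12.1 and 1.61 to 5.67 FPKM, and the 1 of 5 B cell markers was at 2.29 to 10.5 and 1.53 to 4.50 FPKM. All these sums were highest in Ctrl 1, as the members were, although 4 of the 35 markers were not, namely Camp, Ngp and Ltf (highest in Ctrl 3) and Cd8b1 (highest in Ctrl 2). The median log2 fold change was -2.04 for the NK cell, -1.66 for the neutrophil, -1.69 for the monocyte, -1.27 for the platelet and -1.24 for the T cell markers, against -0.93 for the members. After centring, these were -1.13, -0.74, -0.77, -0.36 and -0.32, against -0.02 for the members. Without Ctrl 1 and without centring, the medians were -1.43, -0.84, -0.71, -0.40 and -0.89 in the same order, against -0.35 for the members. The platelet median was then close to that of the members. The 1 B cell marker, Ms4a1, had a log2 fold change of -0.96, or -0.04 after centring and -0.36 without Ctrl 1. It thus lay near the median of the members in each of these fits. For Ptprc the values were -1.22, -0.30 and -0.27 in the same order. An unadjusted p under 0.05 was found for 3 NK cell, 4 neutrophil, 1 monocyte and 1 platelet markers, against 3.40% of the table in the lower direction. All Akk values were below all Ctrl values for 5 NK cell, 6 neutrophil, 2 T cell and 2 platelet markers, against 15.4% of the table. The same held for 0 monocyte and 0 B cell markers. By limma, 0 markers passed the test. The part of cell composition in the values of the members was not tested.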

How the data were processed

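The authors purified mRNA with oligo(dT) beads, sequenced it on the BGISEQ-500 and deposited FPKM per gene, rounded to 2 decimals. The study's methods name HISAT2, Bowtie2 and RSEM, while the submitters' processing notes list TopHat2, Cufflinks and GRCm38, so the upstream pipeline is uncertain. No strand setting is given in the sources used here.

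Members and lists were chosen with earlier results of these data known. Log2(FPKM + 0.1) was compared between 3 Akk and 3 Ctrl libraries with limma 3.58.1 (R 4.3.3), with a variance trend and no scaling, and p-values were adjusted by Benjamini-Hochberg over 8003 genes. Fold changes on this scale understate the change of low genes. The p-values rest on 1 library per mouse. In simulated data, 200 of the 8003 genes were shifted by -3 on the log2 scale. Of these, 63.5% were recovered with all 6 libraries and 84.5% without Ctrl 1, with 5 and 6 false calls. The simulated noise was drawn for each gene separately and lacked the shared shift of Ctrl 1. The planted shift was also larger than that of any member (-1.71 at most), so these rates do not give the power for the members.

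Genes were named by rule: Mrps16, the 3 highest levels, 2 lowest and 1 highest changes of each class (at a mean of at least 1 FPKM, or 0.1 where a class had under 3 such genes), and the 6 smallest p-values. The others were named after their values were seen: Rps19bp1, Mrpl23, Mrpl44, Mrps11, Eif4e, Eif2ak4 and the genes outside the rule. Near-identical copies were sought with blastn 2.17.0 and found for 11 members, including Rps6, Mrpl42, Mrpl23, Mrps10 and Eif3h. Promoters and gene positions came from RefSeq (GRCm38.p6), and positions were matched for 88 of 88 members. Alternatives were pseudocounts of 1 and 0.01, a mean of at least 1 FPKM, centring, quantile normalization, limma without the trend, a replicate block, each library left out, and centring without Ctrl 1. Other steps used Python 3.11.15, pandas 2.3.3 and matplotlib 3.10.9.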

Additional observations from a re-analysis of the deposited data

How the results depend on the processing

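The count of members past both thresholds was 0 in all settings tried. For the whole table the count was 0 with all 6 libraries and became 4 with a pseudocount of 0.01, 1 after centring, 2 after centring without Ctrl 1, 1 with the replicate block, and 0 to 23 with 1 library left out, the highest without Ctrl 3. The replicate numbers did not pair the samples (correlations of deviations 0.04, -0.01 and -0.10 for numbers 1, 2 and 3), since they number different mice, and with the replicate block 6 members had an unadjusted p under 0.05 (6.82%, against 7.38% of the table), compared with 0 members without it. The cytosolic median of -1.22 became -0.22 with quantile normalization and ranged from -1.87 to -0.60 with 1 library left out. The mitochondrial median of -0.95 became -0.035 after centring and -0.067 with quantile normalization, and ranged from -1.50 to -0.40 with 1 library left out. The mitochondrial minus cytosolic difference of 0.27 became -0.32 with genes of at least 1 FPKM, where 1 cytosolic gene remained, and ranged from 0.13 to 0.38 with 1 library left out. Of the 88 members, 39 had a positive log2 fold change after centring, 45 with quantile normalization, 10 without Ctrl 1 and 28 after centring without Ctrl 1. Among the 26 genes named by rule, those positive after centring were Eef1akmt1 (0.15), Eef2k (0.21), Eef2kmt (0.10), Eif1b (0.24), Mrpl33 (0.31), Mrpl48 (0.070) and Mrps23 (0.18). With quantile normalization they were Eef1akmt1 (0.10), Eef2k (0.14), Eif1b (0.40), Eif3f (0.26), Eif3h (0.23), Mrpl33 (0.54), Mrpl4 (0.0035), Mrpl48 (0.27), Mrps16 (0.10), Mrps23 (0.34) and Rpl36al (0.27). Without Ctrl 1 it was Mrpl33, with a range from -1.51 to 0.36 over the single libraries left out, and after centring without Ctrl 1 they were Eef2k (0.15), Eif1b (0.14), Mrpl33 (0.61), Mrpl48 (0.13) and Mrps23 (0.15). The causes were not tested.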

Other observations

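In the hippocampus table of the same mice, which holds 284 genes, 1 gene fitted the rule for ribosomal proteins and translation factors. It was Eif3j2, a gene of the eIF3J subunit, which had 1.33, 1.43 and 0.54 FPKM in Ctrl and 0.81, 0.62 and 0.45 FPKM in Akk. Akk 1 and Akk 2 were above Ctrl 3, so that the groups overlapped. Mitochondrial ribosomal proteins were not among the 284 genes. A table of this length is a selection of genes, so absence from it does not show that a gene was not expressed in hippocampus. The part of that selection in the values of Eif3j2 was not tested.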
